A study of Caenorhabditis elegans with 12 samples.

Results

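Reads of 5 microRNA hairpins known as markers of nervous tissue were followed in small RNA libraries of whole Caenorhabditis elegans hermaphrodites of the wild-type strain N2. They were chosen by name from a table of 250 hairpins, with earlier results of these data known. The 4 neuronal hairpins were lsy-6, mir-124, mir-790 and mir-791, and the glial one was mir-228, listed there as cel-lsy-6, cel-mir-124, cel-mir-790, cel-mir-791 and cel-mir-228. The 12 libraries fell into 4 groups of 3, which were day 15 worms given 100 nM rotenone, day 15 worms given 0.1% DMSO, day 5 worms given 100 nM rotenone and day 5 worms given 0.1% DMSO. Rotenone, an inhibitor of complex I of the mitochondrial respiratory chain, was applied at the L4 larval stage for 24 hours, and DMSO is the solvent used as its control. The labels do not say from which event the days were counted. They also do not say that replicates were separate cultures, so the spread behind each p-value may be a technical one.

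A microRNA is cut from a hairpin precursor and guides Argonaute proteins to messenger RNAs that pair with it, which are then translated less or degraded. In the worm, lsy-6 acts in the left ASE taste neuron, where it represses the homeobox gene cog-1 and so sets the difference between the left and right ASE cells. The gene mir-124 is expressed in ciliated sensory neurons and is the worm relative of the main brain microRNA of vertebrates. The gene mir-791 acts in neurons that sense carbon dioxide, mir-790 is its relative, and the promoter of mir-228 is widely used to drive genes in glia.

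All 5 hairpins had reads in every library and all 5 passed the filter on low counts, as did 181 of the 250 hairpins. Library totals ranged from 4215830 to 11045174 reads, and those of day 15 were the smaller ones. The median age change over the 181 hairpins, averaged over treatments, was 0.05 on the log2 scale. Across the other scalings, filters, tools and lanes tried it lay between -0.14 and 0.07. The libraries were read in 2 lanes. Lane L006 held replicate 1 of both day 15 groups and replicates 1 and 2 of both day 5 groups, and L007 held the others, so lane was balanced over treatment and only in part over age. RNA came from whole worms, so fewer cells of a type and less RNA per cell cannot be told apart.

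By the WBcel235 annotation, lsy-6 (WBGene00003088) is a hairpin of 73 bases on chromosome V at 10647232 to 10647304, plus strand, with no overlapping gene. The hairpin of mir-124 (WBGene00003319) has 96 bases on chromosome IV at 11871738 to 11871833, plus strand. It lies in an intron of trpa-1, which encodes a cation channel and runs on the same strand, and overlaps an exon of the noncoding gene C29E6.8 on the other strand. The hairpins of mir-228 (WBGene00003321, chromosome IV, 5562025 to 5562122) and mir-790 (WBGene00045351, chromosome IV, 5566422 to 5566491) are neighbours on the plus strand, 4299 bases apart. The piRNA 21ur-1430, at 5566428 to 5566448 on the same strand, lies on the first annotated arm of mir-790, which spans 5566427 to 5566448, so reads of the piRNA and of that arm cannot be told apart in a hairpin count. The hairpin of mir-791 (WBGene00045352) has 85 bases on chromosome X at 5809349 to 5809433, plus strand, and its nearest hairpin in the table is mir-230, 5359 bases away on the same strand. The labels do not name the build behind the deposited counts.

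The glial hairpin was far more abundant than the 4 neuronal ones. The level of mir-228 was 30136 ± 2953 CPM in day 15 rotenone, 30541 ± 2463 CPM in day 15 DMSO, 36695 ± 4634 CPM in day 5 rotenone and 35741 ± 4861 CPM in day 5 DMSO (SD, n = 3 each). CPM here are counts scaled to library size, with TMM factors. By its mean over the 12 libraries mir-228 was the 11th most abundant hairpin. It took 3.03% of the reads in day 15 rotenone, 3.10% in day 15 DMSO, 3.75% in day 5 rotenone and 3.45% in day 5 DMSO. The 4 neuronal hairpins together reached 73.2 ± 7.83 CPM in day 15 rotenone, 78.9 ± 7.17 CPM in day 15 DMSO, 252 ± 20.2 CPM in day 5 rotenone and 243 ± 13.7 CPM in day 5 DMSO.

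The order of the neuronal hairpins was not the same at the 2 ages. At day 5, in both treatments, lsy-6 had the highest mean level of the 4, followed by mir-790, mir-124 and mir-791. The libraries of neighbours in that order did not overlap, except those of mir-124 and mir-791 in DMSO. At day 15, in both treatments, mir-790 came first and mir-791 last, and between them the libraries of mir-124 and lsy-6 overlapped. Per base of the annotated arms the orders were the same, except that lsy-6 (0.408 CPM per base) and mir-124 (0.407 CPM per base) changed places in day 15 rotenone. The mean level of mir-228 was 1070 times that of the next hairpin in day 15 rotenone and 1030 times in day 15 DMSO. At day 5 it was 308 times that of the next in rotenone and 337 times in DMSO.

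**Figure D1:**
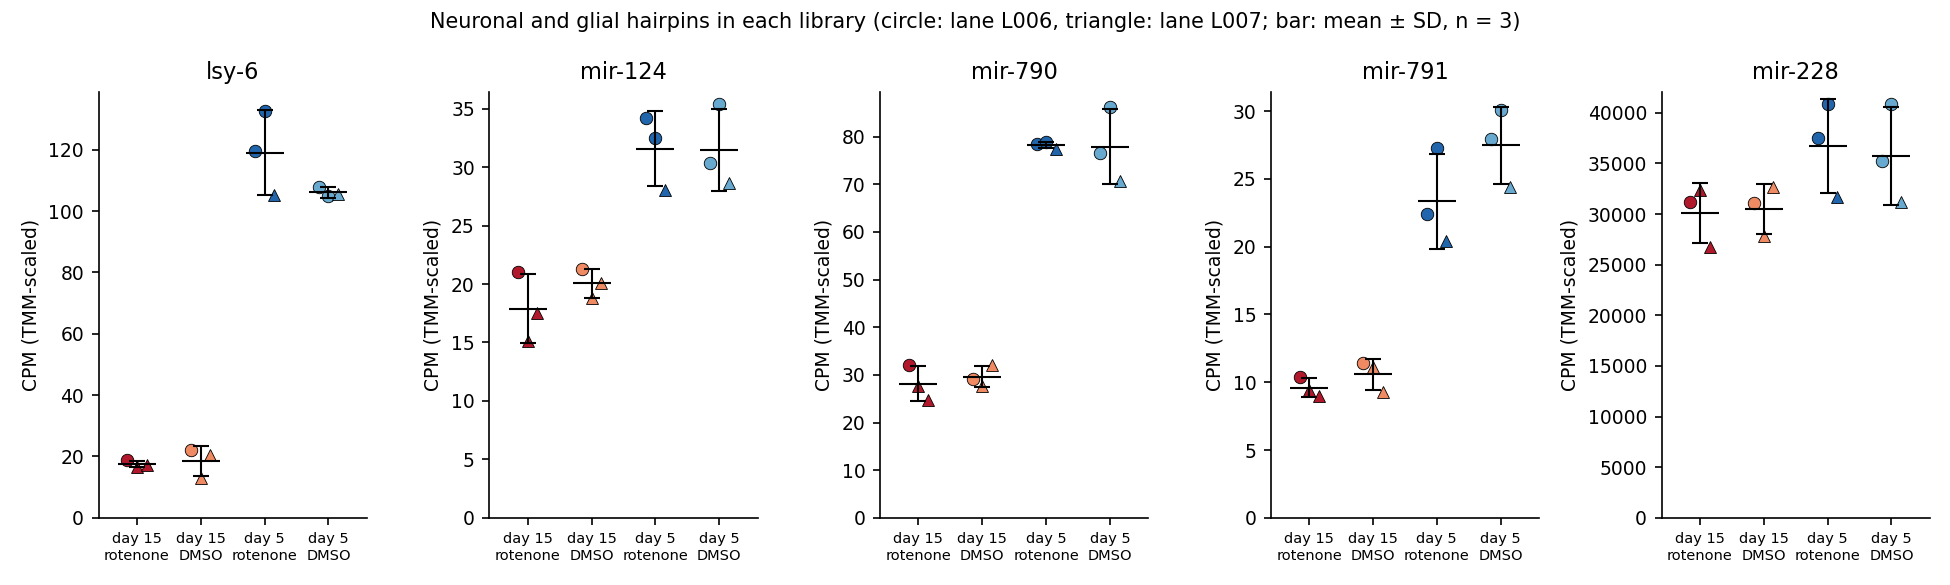
Level of each of the 5 hairpins in each library, in CPM scaled by TMM on a linear axis from 0, with 3 libraries per group, bars for the group mean ± SD and the marker shape giving the lane. The 6 day 15 libraries of lsy-6, mir-124, mir-790 and mir-791 lie below all 6 day 5 libraries. The level of lsy-6 is at most 22.1 CPM at day 15 and at least 104.8 CPM at day 5. The libraries of mir-228 overlap between ages. Within a treatment, 35.9% of all hairpins in rotenone and 42.0% in DMSO have day 15 below day 5 without overlap.

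The first comparison asked how the hairpins differed between old and young worms. All 5 were lower at day 15 than at day 5 in both treatments, and the falls ran from a large one in lsy-6 to a small one in mir-228. In the quasi-likelihood F test of edgeR, 5 of 5 were called lower in rotenone, against 37.6% of all hairpins, and 5 of 5 in DMSO, against 42.0% of all hairpins. Averaged over treatments, 5 of 5 were called lower, against 43.1%. The median log2 change of the 5 was -1.27 in rotenone and -1.37 in DMSO, and over all 181 hairpins it was 0.01 in rotenone and -0.02 in DMSO.

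Hairpin lsy-6, the regulator of taste neuron asymmetry, fell most. Its raw counts were 114, 76 and 69 in day 15 rotenone and 138, 75 and 97 in day 15 DMSO. The day 5 rotenone libraries had 1351, 1197 and 1038 reads and the day 5 DMSO libraries 1148, 968 and 859. Scaled, these were 18.8, 16.7 and 17.3 CPM in day 15 rotenone and 22.1, 13.1 and 20.5 CPM in day 15 DMSO. At day 5 they were 120, 133 and 105 CPM in rotenone and 108, 105 and 106 CPM in DMSO. The highest day 15 library was thus far below the lowest day 5 library. Over all hairpins, day 15 lay below day 5 without overlap for 35.9% in rotenone and 42.0% in DMSO. The log2 change with age was -2.75 ± 0.13 (SE) in rotenone (edgeR adjusted p = 1.97e-16) and -2.52 ± 0.13 in DMSO (edgeR adjusted p = 8.61e-16). Averaged over treatments it was -2.63 ± 0.09, a level 6.21-fold lower at day 15. That was the most negative change of the 181 hairpins, as was the change within rotenone, and the change within DMSO was the second most negative. Within lane L006 the averaged change was -2.45 and within lane L007 it was -2.69.

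The pair mir-790 and mir-791 fell by less than lsy-6, and the ratio between them, given further on, did not pass its test. Raw counts of mir-790 were 195, 126 and 99 in day 15 rotenone and 182, 159 and 152 in day 15 DMSO. The day 5 rotenone libraries had 886, 712 and 765 reads and the day 5 DMSO libraries 815, 797 and 576. That was 24.8 to 32.1 CPM in day 15 rotenone and 27.7 to 32.1 CPM in day 15 DMSO, against 77.5 to 78.9 CPM in day 5 rotenone and 70.7 to 86.3 CPM in day 5 DMSO. No library of one age reached those of the other, as for 35.9% of all hairpins, with day 15 lower, in rotenone and 42.0% in DMSO. The log2 change was -1.46 ± 0.11 in rotenone (edgeR adjusted p = 2.77e-12) and -1.40 ± 0.11 in DMSO (edgeR adjusted p = 3.96e-12), and averaged it was -1.43 ± 0.08, or 2.69-fold lower.

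Hairpin mir-791 was the rarest of the 5. It had 63, 43 and 36 reads in day 15 rotenone and 71, 64 and 44 in day 15 DMSO. The day 5 rotenone libraries had 253, 246 and 202 reads and the day 5 DMSO libraries 297, 278 and 199. As levels these were 9.02 to 10.4 CPM in day 15 rotenone and 9.29 to 11.4 CPM in day 15 DMSO. At day 5 they were 20.5 to 27.3 CPM in rotenone and 24.4 to 30.1 CPM in DMSO, again without overlap between ages. That held, with day 15 lower, for 35.9% of all hairpins in rotenone and 42.0% in DMSO. The spread of its day 15 libraries was 7.22% of the mean in rotenone, where counting alone gives 14.5%, and 10.8% in DMSO, where it gives 12.9%. Its log2 change was -1.27 ± 0.16 in rotenone (edgeR adjusted p = 6.99e-08) and -1.37 ± 0.15 in DMSO (edgeR adjusted p = 5.00e-09), and -1.32 ± 0.11 averaged, or 2.49-fold lower. Within lanes L006 and L007 the averaged changes were -1.33 and -1.44 for mir-790, and -1.24 and -1.23 for mir-791.

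Hairpin mir-124, of the ciliated sensory neurons, fell least of the neuronal ones. Its raw counts were 128, 69 and 70 in day 15 rotenone and 133, 108 and 95 in day 15 DMSO. The day 5 rotenone libraries had 387, 293 and 277 reads and the day 5 DMSO libraries 323, 327 and 233. The levels were 21.1, 15.1 and 17.5 CPM in day 15 rotenone and 21.3, 18.8 and 20.1 CPM in day 15 DMSO. At day 5 they were 34.2, 32.5 and 28.1 CPM in rotenone and 30.4, 35.4 and 28.6 CPM in DMSO. The 6 day 15 libraries were all below the 6 day 5 libraries, with a narrower gap than for the other neuronal hairpins. Within a treatment, such a gap with day 15 lower was found for 35.9% of all hairpins in rotenone and 42.0% in DMSO. The log2 change was -0.80 ± 0.14 in rotenone (edgeR adjusted p = 8.63e-06) and -0.65 ± 0.13 in DMSO (edgeR adjusted p = 8.86e-05), and averaged it was -0.73 ± 0.10, or 1.65-fold lower. Ranked from the most negative averaged change, mir-790 was 14th, mir-791 20th and mir-124 47th of the 181. Within lanes L006 and L007 the averaged changes of mir-124 were -0.58 and -0.71.

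The glial hairpin mir-228 changed least. It had 31235, 32382 and 26791 CPM in day 15 rotenone and 31049, 27863 and 32710 CPM in day 15 DMSO. At day 5 it had 37467, 40895 and 31724 CPM in rotenone and 35213, 40845 and 31166 CPM in DMSO. In both treatments the ages overlapped, since the third replicates of day 5 lay inside the day 15 range. Groups that do not overlap, with day 15 lower, were found for 35.9% of all hairpins in rotenone and 42.0% in DMSO. The log2 change was -0.28 ± 0.10 in rotenone (edgeR adjusted p = 0.0102) and -0.23 ± 0.10 in DMSO (edgeR adjusted p = 0.0351), and -0.26 ± 0.07 averaged (edgeR adjusted p = 0.00126), or 1.19-fold lower.

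The call for mir-228 depended on lane and on single libraries. Both day 5 libraries within the day 15 range were the day 5 libraries of lane L007. Within that lane the averaged change was -0.11 and was not called, and within lane L006 it was -0.25 and was called. Both fits rest on few libraries, since L007 held 1 library per day 5 group and L006 held 1 per day 15 group. In rotenone the call was lost without day 5 rotenone replicate 2 (-0.21, edgeR adjusted p = 0.0789). In DMSO it was lost without replicate 1 or 2 of either age, with changes from -0.24 to -0.12 and edgeR adjusted p from 0.0644 to 0.279, and under most other scalings, which are given in the closing section.

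**Figure D2:**
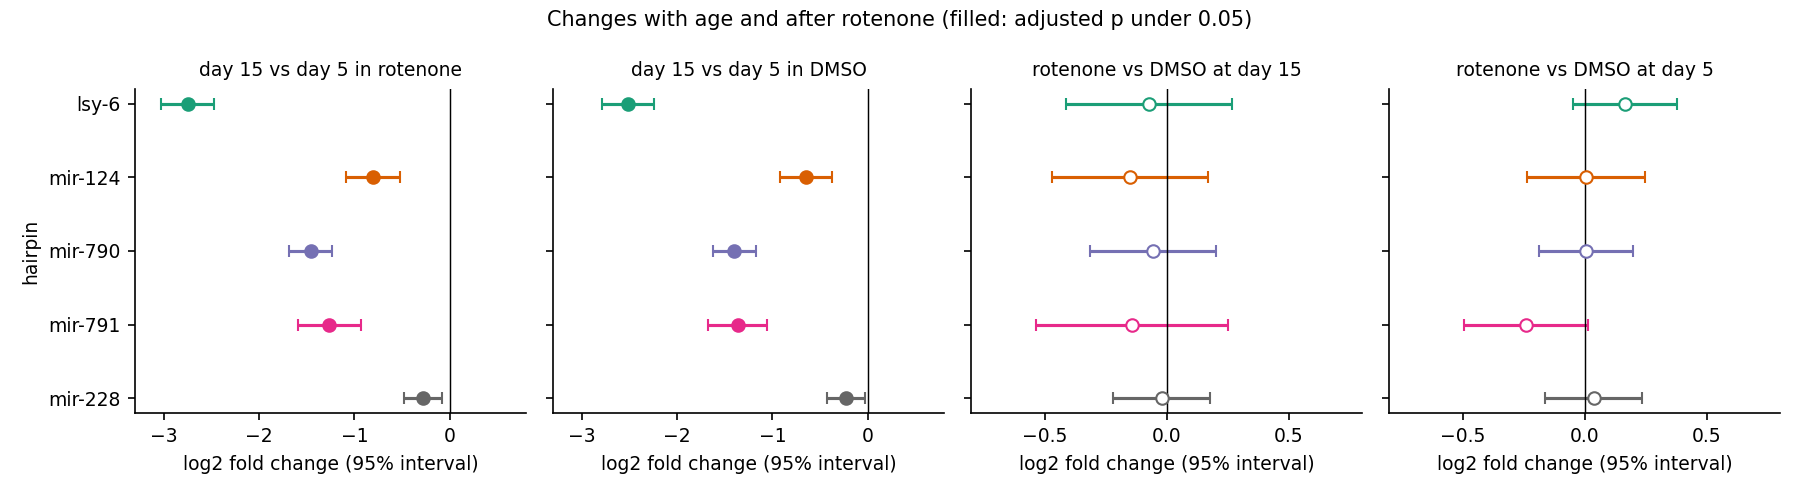
Log2 fold change of each hairpin for day 15 against day 5 in each treatment and for rotenone against DMSO at each age, with bars for the 95% interval of the edgeR fit and filled points for an adjusted p under 0.05. All 10 age intervals lie below 0, with changes from -2.75 for lsy-6 to -0.23 for mir-228, and all 10 rotenone intervals include 0.

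Marker hairpins of other tissues and of oocytes and embryos also changed with age in these whole worms. The muscle hairpin mir-1 had 208 to 212 CPM in day 15 rotenone and 181 to 224 CPM in day 15 DMSO, against 407 to 493 CPM in day 5 rotenone and 475 to 616 CPM in day 5 DMSO. The intestinal hairpin mir-60 had 989 to 1057 CPM in day 15 rotenone and 1047 to 1080 CPM in day 15 DMSO, against 1871 to 2157 CPM in day 5 rotenone and 2102 to 2495 CPM in day 5 DMSO. In both, every day 15 library was below every day 5 library. Over all hairpins, groups without overlap had day 15 lower for 35.9% in rotenone and 42.0% in DMSO. They had day 15 higher for 38.1% in rotenone and 38.7% in DMSO. The somatic gonad hairpin mir-246 was higher at day 15, with 28589 to 30133 CPM in rotenone and 26688 to 30961 CPM in DMSO, against 12553 to 12647 CPM in day 5 rotenone and 13362 to 14393 CPM in day 5 DMSO. The miR-35 family of oocytes and embryos, whose near-identical copies can share reads, took 16.0 to 17.2% of the reads in day 15 rotenone and 15.6 to 16.9% in day 15 DMSO, against 10.2 to 10.6% in day 5 rotenone and 8.16 to 9.35% in day 5 DMSO. All 8 of its hairpins were called higher with age in both treatments (edgeR), against 37.6% of all hairpins in rotenone and 38.1% in DMSO, and none of these marker hairpins was at 0 in any library. Their part in the falls of the neuronal and glial hairpins was not tested.

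**Figure D3:**
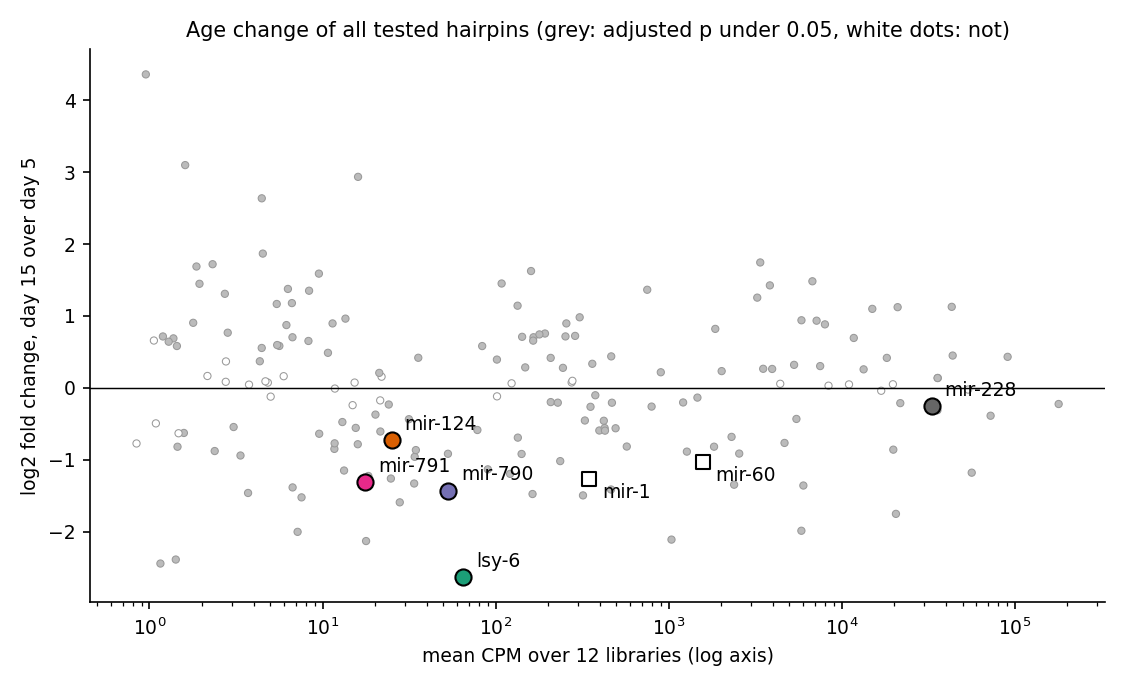
Log2 change of day 15 over day 5, averaged over treatments, against mean level in CPM on a log axis for the 181 hairpins tested, with the 5 neuronal and glial hairpins in colour and mir-1 and mir-60 as squares. The 5 lie at -2.63 (lsy-6), -1.43 (mir-790), -1.32 (mir-791), -0.73 (mir-124) and -0.26 (mir-228), next to a median of 0.05 over all hairpins.

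Ratios between hairpins of the same library need no scaling, and they showed that the nervous system hairpins did not fall in step. Of the 10 pairs among the 5 hairpins, 9 had a log2 ratio that changed with age (two-sided exact permutation test over 400 splits of age within treatment, p = 0.005, the smallest it can give, adjusted p = 0.00556 over the 10 pairs). The log2 ratio of lsy-6 to mir-124 was -0.02 ± 0.15 in day 15 rotenone, -0.15 ± 0.33 in day 15 DMSO, 1.91 ± 0.11 in day 5 rotenone and 1.76 ± 0.17 in day 5 DMSO (SD, n = 3 each). At day 15 the 2 hairpins were thus about equal in reads, and at day 5 lsy-6 had several times the reads of mir-124. The change was -1.92, and that of lsy-6 was -1.21 against mir-790, -1.33 against mir-791 and -2.40 against mir-228, each with the same p. Within lanes L006 and L007 the change of lsy-6 over mir-124 was -1.86 and -1.99.

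The glial hairpin gained on each of the 4 neuronal ones, though in whole worms the cells its reads came from cannot be told. The neighbours mir-790 and mir-228 had a log2 ratio of -10.06 ± 0.13 in day 15 rotenone, -10.00 ± 0.04 in day 15 DMSO, -8.86 ± 0.17 in day 5 rotenone and -8.84 ± 0.05 in day 5 DMSO. The 6 day 15 libraries lay at or below -9.92 and the 6 day 5 libraries at or above -9.02, a change of -1.18, which was -1.08 within lane L006 and -1.33 within lane L007. Against mir-228, the change was -1.06 for mir-791 and -0.48 for mir-124. Within the neuronal set, mir-124 gained 0.70 on mir-790 and 0.58 on mir-791.

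The exception was mir-790 against mir-791. Their log2 ratio was 1.54 ± 0.09 in day 15 rotenone, 1.48 ± 0.26 in day 15 DMSO, 1.75 ± 0.20 in day 5 rotenone and 1.501 ± 0.04 in day 5 DMSO, with overlapping groups and a change of -0.12 (exact permutation p = 0.24, adjusted p = 0.24). Without day 15 DMSO replicate 3 this change was -0.19 (exact permutation, adjusted p = 0.02), so 1 library decides which side of the threshold it falls on.

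**Figure D4:**
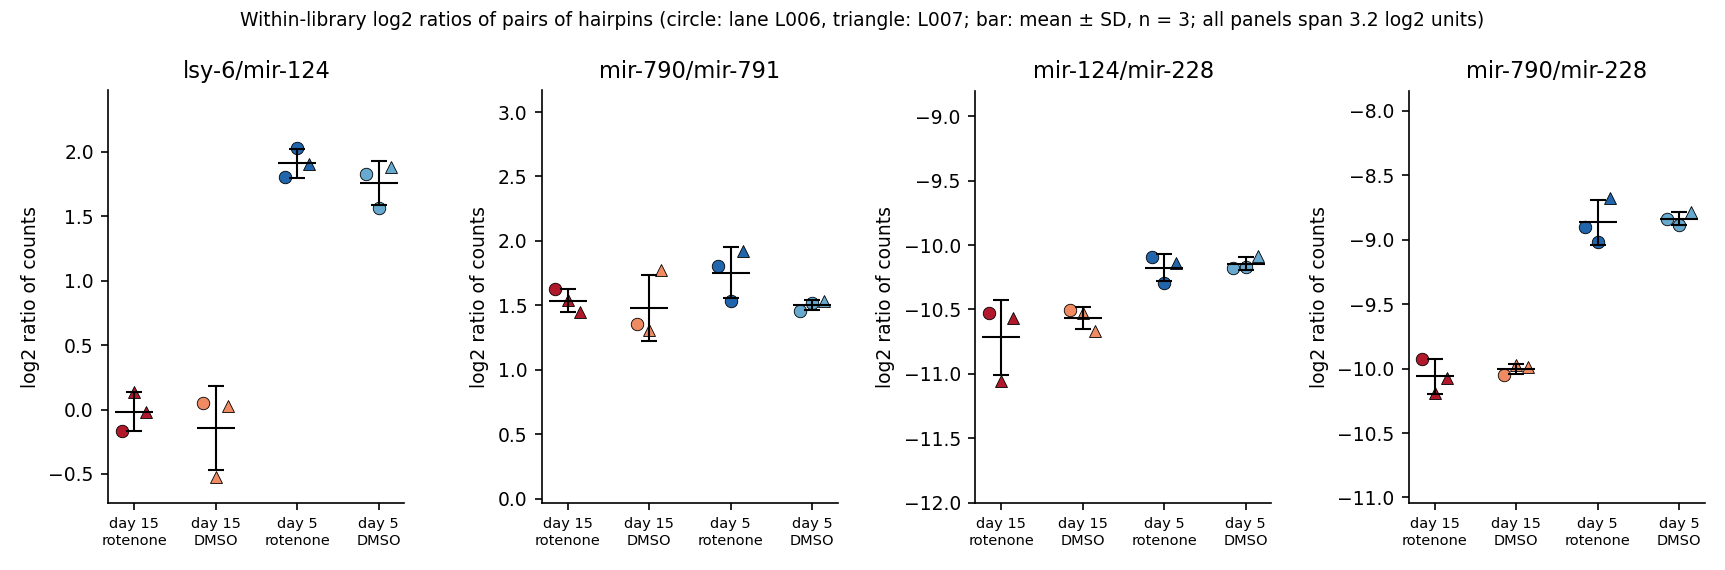
Within-library log2 ratios of counts for 4 pairs of the 5 hairpins, 1 point per library, grouped by age and treatment, with bars for the group mean ± SD and the marker shape giving the lane. Day 15 libraries lie below day 5 libraries for lsy-6 over mir-124, mir-124 over mir-228 and mir-790 over mir-228, and overlap them for mir-790 over mir-791.

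The same ratios were taken to the markers of muscle and intestine, a comparison added after the data were seen. Of the 10 ratios, 6 changed with age by the exact permutation test (adjusted over these 10). The log2 ratio of lsy-6 changed by -1.39 against mir-1 and by -1.62 against mir-60 (exact permutation, adjusted p = 0.0125 each). That of mir-228 changed by 1.01 against mir-1 and 0.78 against mir-60 (exact permutation, adjusted p = 0.0125 each). So lsy-6 lost more of its reads than either tissue marker and mir-228 lost fewer. The ratio of mir-790 to mir-60 changed by -0.40 (exact permutation, adjusted p = 0.02), and that of mir-124 to mir-1 by 0.53 (exact permutation, adjusted p = 0.025), which was 0.47 without day 15 rotenone replicate 1 (adjusted p = 0.05).

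The other 4 ratios did not pass. They were mir-790 over mir-1 at -0.17 (exact permutation, adjusted p = 0.278), mir-791 over mir-1 at -0.05 (adjusted p = 0.695), mir-791 over mir-60 at -0.28 (adjusted p = 0.0688) and mir-124 over mir-60 at 0.30 (adjusted p = 0.0688). The change of mir-124 over mir-60 passed without day 15 rotenone replicate 2 (0.37, exact permutation, adjusted p = 0.0357). That of mir-791 over mir-60 passed without day 5 DMSO replicate 3 (-0.35, exact permutation, adjusted p = 0.0333) and without day 5 rotenone replicate 3 (-0.36, adjusted p = 0.0357). Within lane L006 it was -0.30, and within lane L007 it was -0.05. The change of mir-791 over mir-1 was -0.11 within lane L006 and 0.23 within lane L007, and that of mir-790 over mir-1 was -0.20 within lane L006 and 0.02 within lane L007, so the sign of these 2 differed between lanes.

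The second comparison asked whether rotenone, set against DMSO, altered these hairpins at either age. None of the 5 was called at day 5 (edgeR, 0 of 5, against 25.4% of all hairpins), at day 15 (0 of 5, against 0% of all hairpins) or averaged over ages (0 of 5, against 12.2%). None had an unadjusted p under 0.05 in any of these tests (0 of 5 each), and DESeq2 and limma-voom also called 0 of 5 in each. Over all hairpins, 72 had an unadjusted p under 0.05 at day 5, 3 at day 15 and 48 averaged over ages (edgeR). The hairpins called by edgeR at day 5 were 11 higher and 35 lower. That split was 43 higher and 5 lower when hairpins with a mean under 10 CPM were left out. Of all hairpins, DESeq2 called 18 higher and 30 lower at day 5 and 0 at day 15. Averaged over ages it called 11 higher and 17 lower. For limma-voom these were 11 higher and 35 lower at day 5, 0 at day 15, and 5 higher and 18 lower averaged.

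At day 5 the libraries of each hairpin overlapped between treatments. Over all hairpins, 27.6% had rotenone below DMSO without overlap and 12.2% had rotenone above. The log2 change of lsy-6 was 0.17 with a 95% interval from -0.05 to 0.38 (edgeR adjusted p = 0.25), and that of mir-791 was -0.24, from -0.50 to 0.01 (edgeR adjusted p = 0.149). The intervals ran from -0.24 to 0.25 for mir-124, from -0.19 to 0.20 for mir-790 and from -0.16 to 0.24 for mir-228.

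The value of lsy-6 at day 5 turned on the processing. It was called higher in rotenone when the 3 most abundant hairpins were left out (0.29, edgeR adjusted p = 0.0441) and when hairpins with a mean under 10 CPM were left out (0.37, edgeR adjusted p = 0.00990). Within lane L006 it was 0.29 (edgeR adjusted p = 3.99e-04) and within lane L007, with 1 library per group, 0.03 (edgeR adjusted p = 0.965). Relative to the median of all hairpins under the same setting, its change was 0.08 to 0.26. With the 3 most abundant left out, 29 of all hairpins were called higher and 14 lower. With those under 10 CPM left out, 43 were called higher and 5 lower.

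At day 15 the intervals of the 4 neuronal hairpins were wider, with fewer reads. The log2 change was -0.07 for lsy-6, from -0.41 to 0.27, and -0.14 for mir-791, from -0.54 to 0.25. It was -0.15 for mir-124, from -0.47 to 0.17, and -0.05 for mir-790, from -0.31 to 0.20. For mir-228 it was -0.02, from -0.22 to 0.18. Each had an edgeR adjusted p of 0.968, and all groups overlapped. Most hairpins overlapped at this age, with rotenone below DMSO without overlap for 2.21% of all hairpins and above for 3.87%.

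Whether the age change differed between rotenone and DMSO was tested with the interaction term. None of the 5 was called (edgeR, 0 of 5), against 6.63% of all hairpins. At an unadjusted p under 0.05 it was 0 of 5, against 45 of the 181 hairpins. DESeq2 and limma-voom called 0 of 5. Of all hairpins, DESeq2 called 11 higher and 7 lower, and limma-voom called 11 higher and 4 lower. The difference of lsy-6, rotenone change with age minus DMSO change with age, was -0.24, with a 95% interval from -0.64 to 0.17 (edgeR adjusted p = 0.51). The other differences were -0.15 for mir-124, -0.06 for mir-790, 0.10 for mir-791 and -0.06 for mir-228. The ratios between hairpins gave 0 of 10 pairs that changed with rotenone (exact permutation over 400 splits, adjusted p from 0.5 to 0.685). The smallest unadjusted p was 0.05, for mir-791 over mir-228, at -0.20.

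**Figure D5:**
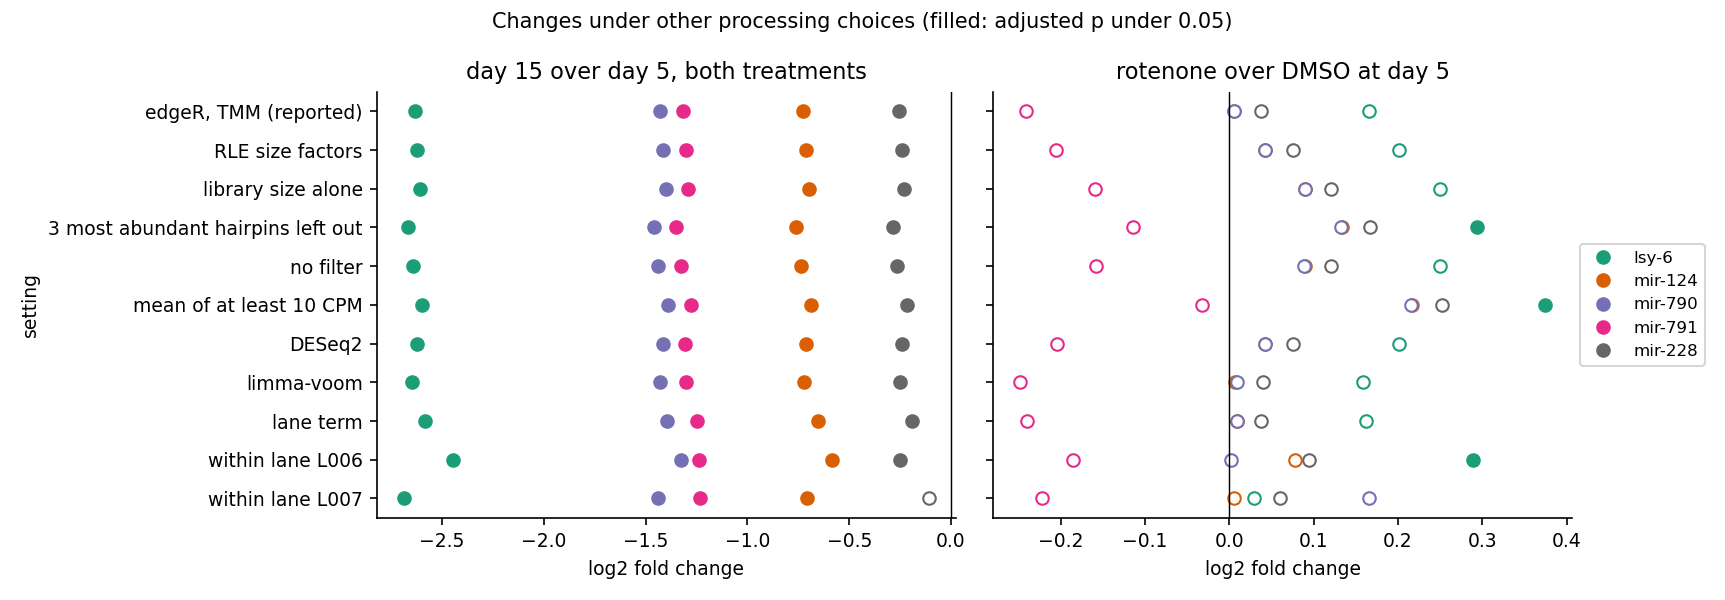
Log2 change of each of the 5 hairpins under each processing setting, for age averaged over treatments and for rotenone at day 5, with filled points for those called at an adjusted p under 0.05. The age changes of lsy-6, mir-124, mir-790 and mir-791 stay below 0 and called in all settings shown, and the day 5 change of lsy-6 is called in 3 of them.

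A list of 4 other hairpins reported in neurons was set beside these. Hairpin mir-273, which was reported to act in the right ASE neuron, had 0 reads in all 12 libraries. That allows up to 0.272 to 0.712 CPM by counting error alone. The other 3 were called lower with age in both treatments, against 37.6% of all hairpins in rotenone and 42.0% in DMSO. Their median log2 change was -0.51 in rotenone and -1.06 in DMSO, against a median over all hairpins of 0.01 in rotenone and -0.02 in DMSO. Hairpin mir-71, which is required for normal lifespan and is also made outside neurons, changed by -1.02 ± 0.06 in rotenone and -1.70 ± 0.06 in DMSO. Hairpin mir-234 changed by -0.51 ± 0.16 in rotenone and -1.06 ± 0.16 in DMSO, and mir-2 by -0.19 ± 0.07 in rotenone and -0.22 ± 0.07 in DMSO. The call of mir-234 in rotenone was lost within lane L007 (-0.38, edgeR adjusted p = 0.154) and that of mir-2 in rotenone within lane L006 (-0.07, edgeR adjusted p = 0.313). The call of mir-2 in DMSO was lost without day 5 DMSO replicate 2 (-0.13, edgeR adjusted p = 0.0773), with library size alone (-0.14) and with hairpins under a mean of 10 CPM left out (-0.08). It was also lost within lane L007, where the change was -0.21 (edgeR adjusted p = 0.0519).

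With rotenone, 1 of these 3 was called at day 5, against 25.4% of all hairpins, and 0 of 3 at day 15, against 0% of all hairpins. With hairpins under a mean of 10 CPM left out, mir-2 was also called at day 5, at 0.22 (edgeR adjusted p = 0.00670). Of all hairpins, 43 were called higher and 5 lower under that setting. At day 5 mir-71 had 6751, 6604 and 6820 CPM in rotenone, against 10268, 11300 and 11055 CPM in DMSO, a log2 change of -0.69 ± 0.06 (edgeR adjusted p = 2.60e-09). At day 15 it had 3223, 3387 and 3338 CPM in rotenone, against 3341, 3288 and 3438 CPM in DMSO, a change of -0.02 ± 0.06 (edgeR adjusted p = 0.968). The rotenone libraries were thus all below the DMSO libraries at day 5, and the groups overlapped at day 15. Rotenone below DMSO without overlap was found for 27.6% of all hairpins at day 5. At day 15 mir-234, with 72, 66 and 65 reads in rotenone and 64, 51 and 48 in DMSO, changed by 0.52 ± 0.19 (edgeR adjusted p = 0.918).

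The hairpins most like each of the 5 were found by the root mean square (RMS) difference of log2 CPM, centred on the mean over the 12 libraries, among the 130 other hairpins whose mean reached 10 CPM. These points share library and depth. Nearest to lsy-6 were let-7, a timer of larval development, at an RMS of 0.343 and mir-237 at 0.402, against a median of 1.26 over the 130. Nearest to mir-790 were mir-230 at 0.101 and mir-244 at 0.113 (median 0.648), and nearest to mir-791 were mir-253 at 0.144 and mir-1830 at 0.154 (median 0.609). For mir-124 they were mir-233 at 0.120 and mir-793 at 0.130 (median 0.429), and for mir-228 they were mir-242 at 0.0925 and mir-86 at 0.122 (median 0.358). None of these 10 was one of the 5. Among the 5, the most alike were mir-790 and mir-791, at 0.177, and the least alike were lsy-6 and mir-228, at 1.20.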

How the data were processed

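The deposited table holds read counts per hairpin as whole numbers, both arms together, and was not normalized. Tools named in the submitters' processing notes are SAMtools 1.3.1-9, BWA 0.7.12-r1039, Trimmomatic 0.36 and bcl2fastq 1.8.4, with no role. No source used here gives the build, the hairpin reference or the rule for reads that match several hairpins. Per the labels' protocols, a TruSeq small RNA kit was used.

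Groups came from the labels. Counts were fitted with edgeR 4.0.16 in R 4.3.3 (filterByExpr with a minimum count of 10, TMM, 4 group means over 12 libraries, quasi-likelihood F test), adjusted by Benjamini-Hochberg over 181 hairpins and called under 0.05. The standard error is the log2 fold change over the square root of F. Log2 ratios used a pseudocount of 0.5 and exact permutation, with p-values adjusted in SciPy 1.17.1. Alternatives included DESeq2 1.42.0 and limma 3.58.1 (voom). The fits were tested on simulated data.

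The 5 hairpins and all lists were chosen with earlier results of these data known. Hairpins were named as one of the 5, as one of the other neuronal or tissue marker lists, or as one of the 2 nearest patterns. A further naming rule based on mature sequence was not used here. A count of 3 corresponds to 0.272 to 0.712 CPM, which covers counting error only, as do all limits from counts of 0.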

Additional observations from a re-analysis of the deposited data

Results flagged for a closer look

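The rotenone effect on mir-71, one of the other neuronal hairpins, differed between ages by the interaction test, with a log2 change at day 15 that was 0.68 above that at day 5 (edgeR adjusted p = 5.02e-06). At day 5 mir-71 was below all DMSO libraries in 3 of 3 rotenone libraries, as were 27.6% of all hairpins. At day 15 the groups overlapped. Within lane L007, with 1 library per day 5 group, the difference was 0.64 and was not called. It was called in the other 9 of 10 settings. These include lane L006, which held as many libraries as L007 and 1 per day 15 group.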

How the results depend on the processing

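No paired analysis was possible because the labels give no replicate numbers and the numbers used here follow the order of deposit. The falls of lsy-6, mir-124, mir-790 and mir-791 with age kept their direction and call under every alternative run and without each of the 12 libraries. Fits within a lane used fewer than the 12 libraries, as many in L006 as in L007. In both lanes a group of 1 library was taken to vary like the others. The fall of mir-228 was lost within lane L007 (averaged -0.11, rotenone -0.16, DMSO -0.050). In DMSO it was also lost with RLE factors (-0.19), library size alone (-0.15), the 3 most abundant hairpins left out (-0.19), no filter (-0.18), a mean of at least 10 CPM (-0.087), DESeq2 (-0.19) and a lane term (-0.16), and the cause was not tested. With 1 library left out, the mir-228 change lay between -0.39 and -0.21 in rotenone worms and between -0.31 and -0.12 in DMSO worms.

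For rotenone at day 5, 1 of the 5 hairpins was called, lsy-6, under 3 alternatives, against 0 otherwise. With the 3 most abundant left out it was 0.29, where 29 of all hairpins were called higher and 14 lower. At a mean of at least 10 CPM it was 0.37, where 43 were called higher and 5 lower. Within lane L006, with 1 library per day 15 group, it was 0.29. Every reversal concerned a change that was not called. At day 15 these were lsy-6 within L007 (0.016) and, within L006, mir-124 (0.10), mir-790 (0.25) and mir-228 (0.12). For the interaction, L006 gave 0.018 for mir-124, 0.25 for mir-790 and 0.028 for mir-228. That of mir-791 was -0.037 with the 3 most abundant left out, -0.0027 with no filter and -0.097 at a mean of at least 10 CPM. Averaged over ages, mir-124 was 0.041 at a mean of at least 10 CPM and 0.087 within L006. The averaged value of mir-790 was 0.011 with library size alone, 0.033 with the 3 most abundant left out, 0.0069 with no filter, 0.088 at a mean of at least 10 CPM and 0.13 within L006.

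With 1 library left out, the day 5 rotenone change ran from -0.054 to 0.097 for mir-124, from -0.052 to 0.084 for mir-790 and from -0.047 to 0.14 for mir-228. At day 15 it ran from -0.25 to 0.11 for lsy-6, from -0.14 to 0.025 for mir-790 and from -0.058 to 0.062 for mir-228. The interaction ran from -0.0072 to 0.21 for mir-791 and from -0.17 to 0.019 for mir-228. Averaged over ages, rotenone ran from -0.022 to 0.16 for lsy-6, from -0.11 to 0.015 for mir-124, from -0.057 to 0.039 for mir-790 and from -0.038 to 0.073 for mir-228. Log2 ratio changes with rotenone ran from -5.1e-04 to 0.17 for lsy-6 over mir-790, from -0.035 to 0.12 for lsy-6 over mir-228 and from -0.090 to 0.0021 for mir-124 over mir-790. The age change of mir-791 over mir-1 ran from -0.14 to 0.044. This and the other ratios to mir-1 and mir-60 were added after seeing the data. Within lane L007 mir-791 changed by 0.23 over mir-1 and -0.051 over mir-60, and mir-228 by 1.3 and 1.1. Day 15 counts of at most 138 limit the precision for lsy-6, mir-124 and mir-791.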
